A study of Mus musculus with 9 samples.

Results

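LINE-1 repeats were counted in 9 libraries of genomic DNA tags from mouse embryonic stem cells. They were taken as the repeat names that begin with L1, LX or HAL1 once quotation marks are removed and letters are set in capitals. Of the 312 repeat names with a count in at least 1 library, 45 met this rule, of which 11 begin with LX and none with HAL1. The rule used only the names and no measured value. In every library but HRS replicate 1, HRS replicate 3 and the D0 input all 45 were counted, and in those 3 libraries 44 were.

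LINE-1 elements are retrotransposons that copy themselves through an RNA intermediate with proteins they encode, and they are a major repeat class of the mouse genome. Successive families have arisen over time. In the mouse the A, Tf and Gf families hold the youngest elements, which include copies that can still move, whereas the F, V and Lx families are older, Lx dating from an early expansion in the rodents that led to mice and rats. Many old copies are truncated at the 5′ end, so a family name stands for many copies of unequal length.

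The cells were E14Tg2a, an embryonic stem cell line of 129P2 background kept in medium with LIF. The labels state no difference in genotype or treatment between the groups. The HRS assay treats nuclei with high salt and cuts their DNA with the enzyme StyI. DNA that stays with the insoluble residue is the HRS (high-salt recovered sequence) fraction, and DNA that is set free is the Loop fraction. There were 3 HRS, 3 Loop and 3 input libraries, the inputs being genomic DNA titled D0, D12 and D21, terms that the labels do not explain. The labels do not state whether the 3 replicates of a fraction were separate cultures, and the p-values below thus reflect only the spread between these libraries, which may be technical. In place of RNA or protein, the measured quantity is the number of short DNA tags next to StyI cuts that were assigned to a repeat name. A share of tags therefore depends on how many copies and StyI sites a name has, and is neither an expression level nor a level per length. Tags this short can match several closely related LINE-1 names, and as no source used here gives the treatment of such tags, the division of counts between near-identical names is uncertain.

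Each repeat table held between 1.68 and 2.67 M counts. The names of these repeat files carry a letter A or B that the labels do not explain. Letter A marks HRS replicates 1 and 3, Loop replicate 2 and the D21 input. Letter B marks HRS replicate 2, Loop replicates 1 and 3 and the D0 input, and the D12 input has no letter. For single names and for the whole LINE-1 share, HRS, Loop and input were therefore also compared within each letter where enough tables allowed it. For shares summed over groups of names this was not done. Values in the text are percent of a table's total count unless stated otherwise.

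A few names held most LINE-1 tags. L1MdF_I and L1MdF_II, both of the older F type, together held 35.4% of LINE-1 counts on average over the 9 tables. The 5 largest names held 55.9% and the 12 largest 81.0%. L1MdF_I was the second largest of all 312 repeat names. Its share was 7.74%, 6.52% and 7.13% in HRS replicates 1 to 3, 7.05%, 7.59% and 6.33% in Loop replicates 1 to 3, and 8.31%, 8.28% and 8.79% in the D0, D12 and D21 inputs. All 6 HRS and Loop tables, called fraction tables from here on, lay below the 3 inputs, and the HRS and Loop values overlapped.

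L1MdF_II followed with 3.92%, 3.50% and 3.75% in HRS, 3.66%, 3.88% and 3.94% in Loop and 3.93%, 4.07% and 4.14% in the inputs, so that HRS lay just below the inputs and Loop overlapped them. L1MdV_III, the largest V name, held 2.39%, 2.76% and 2.25% in HRS, 2.72%, 2.43% and 2.68% in Loop and 2.5%, 2.59% and 2.46% in the inputs. Its groups overlapped throughout. L1B_MM held 2.04%, 1.90% and 2.06% in HRS, 1.98%, 2.22% and 1.81% in Loop and 2.08%, 2.26% and 2.12% in the inputs. L1MdMus_I held 1.94%, 2.0% and 1.79% in HRS, 2.12%, 1.94% and 2.14% in Loop and 1.99%, 2.09% and 2.09% in the inputs. These neighbours in the order of shares, with means of 2.05% and 2.01%, did not differ beyond their spread over tables.

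The next names were the ancestral F name L1MdFanc_I and the Lx name L1Lx_IV. L1MdFanc_I held 1.61%, 1.37% and 1.42% in HRS, 1.5%, 1.57% and 1.38% in Loop and 1.60%, 1.63% and 1.5% in the inputs. L1Lx_IV held 1.45%, 1.31% and 1.41% in HRS, 1.39%, 1.54% and 1.24% in Loop and 1.48%, 1.55% and 1.51% in the inputs. In both the 2 lowest values belonged to fraction tables of letter B, and the highest fraction table, of letter A, reached the inputs. LX2B, of the Lx family, held 0.895%, 0.896% and 0.752% in HRS, 0.905%, 0.890% and 0.80% in Loop and 1.03%, 1.02% and 1.12% in the inputs, so all fraction tables lay below all inputs. LX5b held 0.808%, 0.864% and 0.773% in HRS, 0.880%, 0.804% and 0.922% in Loop and 0.873%, 0.864% and 0.841% in the inputs, with overlap between all groups. The other names of the 12, L1Lx_II, L1MdTf_III and L1MdV_II, varied much more between tables and are described with the letters below.

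At the other end, the lowest names belonged to the young A and Tf families. L1MdA_II held 0.00375% on average, L1MdTf_I 0.00271% and L1MdA_I 0.000844%. L1MdTf_II was counted 0, 2 and 0 times in HRS, 2, 2 and 1 times in Loop and 0, 3 and 1 times in the inputs. A count of 0 allows up to 1.31, 1.79 and 1.13 CPM (counts scaled to the table's total) in HRS replicate 1, HRS replicate 3 and the D0 input. L1MdTf_II failed the filter on low counts in the edgeR fits, so 44 of the 45 names were tested there. The third Tf name, L1MdTf_III, was by contrast the ninth largest LINE-1 name.

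LINE-1 names together held 30.6%, 33.3% and 28.9% of counts in HRS replicates 1 to 3 and 33.3%, 31.0% and 32.4% in Loop replicates 1 to 3. In the D0, D12 and D21 inputs they held 32.7%, 33.5% and 34.2%. The 95% Wilson interval of each share reached at most 0.0686 percentage points to either side, which covers counting error only and is far below the spread between tables. The difference of HRS minus Loop was -1.30 points (exact two-sided permutation p = 0.5, n = 3 each). HRS minus input was -2.55 points and Loop minus input -1.26 points, with exact permutation p = 0.2 for each. With 3 tables against 3 the smallest p is 0.1, so this test cannot reach the threshold of 0.05. Within letter A the 3 differences kept their sign, with HRS at 30.6% and 28.9%, Loop at 31.0% and the D21 input at 34.2%. Within letter B the 3 differences took the other sign, 0.448 points for HRS over Loop, 0.562 for HRS over input and 0.114 for Loop over input. Each letter has 1 or 2 tables on each side.

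Over the fraction tables the share followed the letter. The 3 of letter A held 28.9% to 31.0% and the 3 of letter B 32.4% to 33.3%, without overlap and with a difference of A minus B of -2.85 points (exact permutation p = 0.1, the smallest possible). Over the 8 lettered tables with the inputs included, A minus B was -1.77 points (exact permutation p = 0.171, n = 4 each). With 1 table left out it ran from -2.78 points, without the D21 input, to -0.996 points, without HRS replicate 3. The D21 input is the letter A table with the highest share of all, and the exact p without it, 0.0286, is the smallest that 3 against 4 tables allow. Satellite and SINE names moved with the letter too. The major and minor satellites held 4.45%, 3.99% and 3.85% in the A fraction tables, 0.66%, 0.70% and 0.30% in the B fraction tables and 0.89%, 1.16% and 2.10% in the inputs. The 3 SINE names (B1, B1F and B2, short elements copied with LINE-1 proteins) held 6.87% to 7.74% in the A fraction tables, 4.62% to 4.96% in the B fraction tables and 5.42% to 5.75% in the inputs. With satellites taken out of the total, the difference of the A minus the B fraction tables was -1.74 points, again without overlap.

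**Figure D1:**
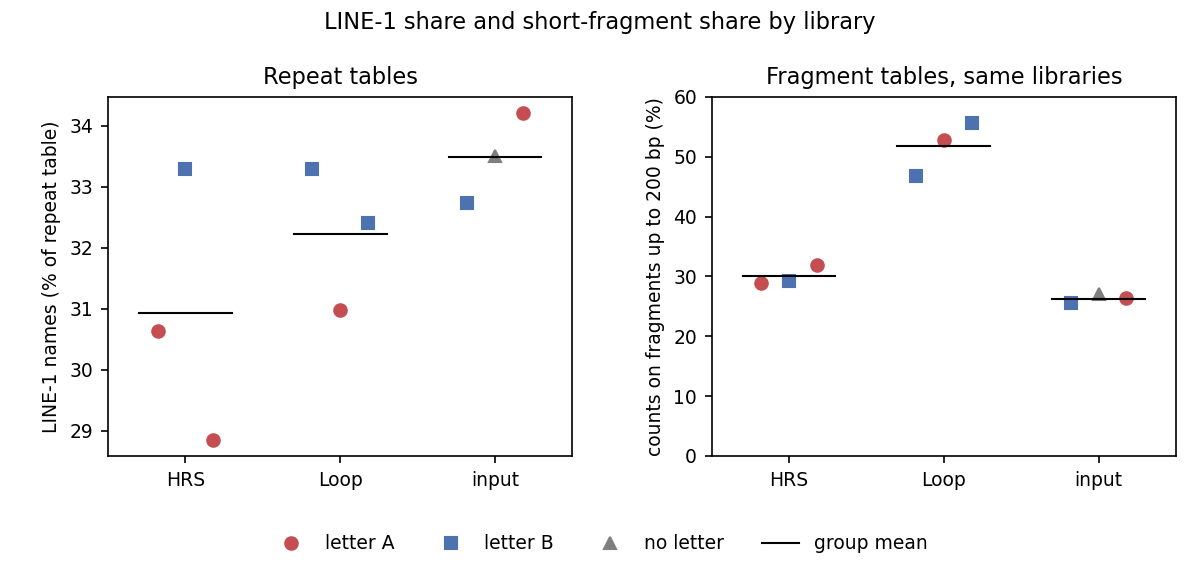
LINE-1 share of each repeat table (left, percent of the table's counts, axis not from 0) and share of the same libraries' StyI fragment counts that lies on fragments of up to 200 bp (right, percent), for HRS, Loop and input, 1 point per library with its letter. On the left the A fraction tables, at 28.9% to 31.0%, lie below the B ones, at 32.4% to 33.3%, whereas on the right the 3 Loop libraries, at 46.8% to 55.6%, lie above all others.

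In their share of counts on short fragments, the fragment tables of the same libraries did not divide by letter. No other value of the fragment tables was compared by letter here. Counts on StyI fragments of at most 200 bp made up 28.9%, 29.3% and 32.0% in HRS replicates 1 to 3, 46.8%, 52.8% and 55.6% in Loop replicates 1 to 3 and 25.6%, 27.0% and 26.3% in the inputs. Here replicate 2 of each fraction lay with its own fraction. In the repeat tables HRS replicate 2 lay with Loop replicates 1 and 3, and Loop replicate 2 with HRS replicates 1 and 3. What the letter stands for, and whether the repeat tables of HRS replicate 2 and Loop replicate 2 were exchanged, was not tested. If they were, letter A would mark the 3 HRS and letter B the 3 Loop tables, and every value given by fraction label for the repeat tables would change its meaning. The group labels were kept as given.

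The distance between 2 tables over LINE-1 names, taken as the root mean square of the log2 ratios of shares, showed the same division. Tables of the same letter but different fraction lay 0.0999 to 0.208 apart (4 pairs), and those of the same letter and fraction 0.129 to 0.192 apart (2 pairs). Tables of the same fraction and different letter lay 0.334 to 0.451 apart (4 pairs). The nearest table of each fraction table had its letter. The inputs lay 0.0648 to 0.141 from each other. From the inputs, the distance was 0.134 to 0.308 for the A fraction tables and 0.306 to 0.478 for the B ones. D0 and D21, which differ in letter, were thus nearer to each other than any fraction table of A was to one of B.

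By fraction label, no LINE-1 name passed edgeR's test in any of the 3 comparisons, whereas DESeq2 called a few against input. In HRS against Loop 0 of 44 LINE-1 names were called by edgeR's quasi-likelihood test at a Benjamini-Hochberg adjusted p of 0.05, beside 0% of the 289 names tested. DESeq2 called 0 as well, and 0 LINE-1 names had an unadjusted p under 0.05 in edgeR. The log2 ratios of HRS over Loop ran from -0.36 (L1MdA_II) to 0.16 (L1MdA_VI), with a median of -0.09 beside -0.00 over all names, and 8 of 44 were above 0. The standard errors were largest, 0.46 for L1Lx_II and 0.43 for L1Lx_I, in the names that differ between letters. Leaving out both replicate 2 tables, which leaves HRS with letter A only and Loop with letter B only, gave 14 of 44 LINE-1 names, all lower in HRS, beside 26.4% of all names called and 15.4% called lower. In that setting the fraction cannot be told apart from the letter. Within letter A and within letter B, 0 LINE-1 names were called between HRS and Loop, beside 0.34% and 0.341% of all names, with 0 and 1 LINE-1 names at an unadjusted p under 0.05. The difference between those 2 within-letter ratios was called for 0 of 44 LINE-1 names and 0.339% of all names. Each letter sets 2 tables against 1, with the spread from those 2 alone, so these counts of 0 do not show that the fractions are alike within a letter.

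Against input, edgeR called 0 of 44 LINE-1 names in HRS (0% of 291 names) and 0 of 44 in Loop (0% of 288 names). At an unadjusted p under 0.05 there were 7 and 10 LINE-1 names, and the lowest adjusted p was 0.0883 and 0.0933. DESeq2, which models the spread otherwise, called 4 of 45 LINE-1 names in HRS against input beside 7.69% of all names. All 4, L1MdGf_II, L1MdA_III, L1MdF_III and L1MdFanc_II, were lower in HRS. It called 5 of 45 in Loop against input beside 10.9%. There L1MdA_III, L1MdF_III and L1MdGf_II were lower and L1MdV_II and L1_MM higher. These shares of LINE-1 names lie near those of all names.

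Within 1 letter the comparisons with input gave calls, of opposite sign. HRS replicates 1 and 3 against the D21 input, all of letter A, gave 13 of 44 LINE-1 names lower beside 10.2% of all names. Loop replicates 1 and 3 against the D0 input, all of letter B, gave 9 of 44 higher beside 12% of all names. Each of these rests on 1 input table, and the spread came from its 2 fraction tables alone. The 2 comparisons differ in letter, fraction and input table, which cannot be told apart here.

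The letter itself was tested first over all 8 lettered tables, with the group as a term. Here 0 of 44 LINE-1 names passed in edgeR beside 0.676% of all names, 11 LINE-1 names having an unadjusted p under 0.05, and DESeq2 called 9 of 45, all lower in A, beside 11.2%. With any 1 of the 6 fraction tables left out 0 LINE-1 names passed. Without the D0 input 18 passed and without the D21 input 17, but the group term then takes up the only input left, so that these fits rest on the fraction tables alone. In the 6 fraction tables alone, 18 of 44 LINE-1 names (40.9%) were lower in A beside 19.1% of all names, and 0 were higher in A beside 13%. The median log2 ratio of A over B was -0.20 for LINE-1 names and -0.01 for all names. The remaining fits, which set the 3 A or the 3 B fraction tables against the 3 inputs, were added after these values were seen, and they share the inputs. Each of these fits pooled HRS and Loop tables as replicates of 1 condition, with no term for the fraction. The A set held HRS replicates 1 and 3 and Loop replicate 2, and the B set HRS replicate 2 and Loop replicates 1 and 3. The inputs mix D0 of letter B, D21 of letter A and D12 without a letter, so neither fit compares tables within 1 letter.

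Among the names with the largest ratios of the mean share in B to that in A were the numbered I and II members of L1Lx and L1MdV, with ratios of 2.17, 2.02, 1.89 and 1.87 for L1Lx_II, L1Lx_I, L1MdV_II and L1MdV_I. The much rarer L1MM_F was close to them at 1.86. L1Lx_II, of the old Lx family, held 0.934%, 0.837% and 0.920% in the A fraction tables (HRS 1, HRS 3, Loop 2) and 2.17%, 1.92% and 1.75% in the B ones (HRS 2, Loop 1, Loop 3), beside 1.04%, 1.08% and 1.12% in the inputs. Every B fraction table lay above and every A fraction table below all 3 inputs. The D0 input of letter B held 0.925 times the share of the D21 input of letter A. Against input the log2 ratio was 0.94 ± 0.09 (SE) in B with adjusted p = 4.96e-05 and -0.22 ± 0.06 in A with adjusted p = 0.0224 by edgeR. The A value missed the threshold without HRS replicate 3, the D12 input or the D21 input.

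L1Lx_I held 0.514%, 0.558% and 0.554% in the A fraction tables, 1.24%, 0.997% and 1.04% in the B ones and 0.557%, 0.604% and 0.560% in the inputs. The A tables lay at the level of the inputs and the B tables at 2.02 times the A mean. Against input the log2 ratio was 1.02 ± 0.09 in B (edgeR adjusted p = 4.96e-05) and -0.04 ± 0.06 in A (adjusted p = 0.689). The other numbered L1Lx names behaved otherwise. L1Lx_III held 0.512%, 0.493% and 0.546% in A, 0.562%, 0.563% and 0.538% in B and 0.620%, 0.626% and 0.633% in the inputs, below the inputs in all 6 fraction tables. Its log2 ratio to input was -0.23 ± 0.06 in A (adjusted p = 0.0131) and -0.09 ± 0.07 in B (adjusted p = 0.316). L1Lx_IV had a ratio of -0.12 ± 0.06 in B (adjusted p = 0.158) and -0.00 ± 0.05 in A.

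The V family repeated this division between its members. L1MdV_II held 0.576%, 0.596% and 0.623% in the A fraction tables, 1.26%, 1.01% and 1.12% in the B ones and 0.587%, 0.637% and 0.567% in the inputs. L1MdV_I held 0.446%, 0.472% and 0.469% in A, 0.913%, 0.790% and 0.891% in B and 0.473%, 0.499% and 0.482% in the inputs. The A tables overlapped the inputs in L1MdV_II and lay just below them in L1MdV_I, and the B tables stood apart above them in both. Their log2 ratios of B over input were 1.02 ± 0.09 and 0.93 ± 0.09, each with edgeR adjusted p = 4.96e-05, and those of A over input 0.05 ± 0.06 and -0.02 ± 0.05, which did not pass. L1MdV_III, the largest V name, had 0.20 ± 0.06 in B (adjusted p = 0.0171), a call that was lost with library totals as the scaling and without the D0 or the D12 input.

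**Figure D2:**
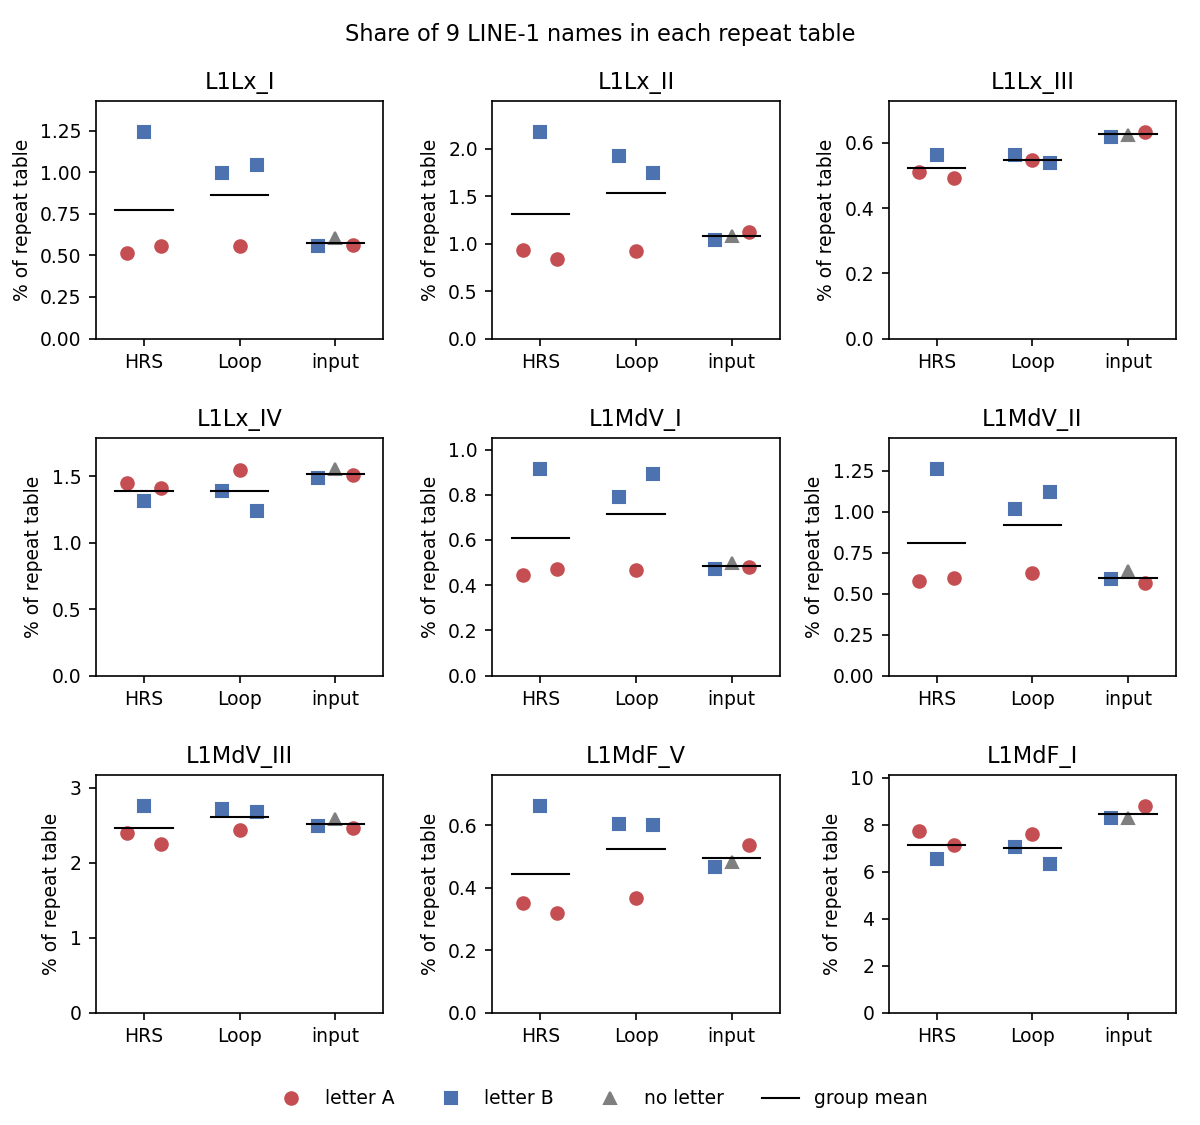
Share of 9 LINE-1 names in each of the 9 tables (percent of the table's counts, axes from 0), 1 panel per name and 1 point per table, with HRS, Loop and input on the horizontal axis, colours for the letters and lines for group means. L1Lx_II, L1Lx_I, L1MdV_II and L1MdV_I lie higher in the 3 B fraction tables than in the 3 A ones, for L1Lx_II at 1.75% to 2.17% against 0.837% to 0.934%, while the D0 and D21 inputs lie close together.

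Among the 5 F names, IV and V were higher than input in the B fraction tables and I and III were lower. L1MdF_V held 0.351%, 0.321% and 0.367% in A, 0.662%, 0.606% and 0.601% in B and 0.466%, 0.481% and 0.537% in the inputs, so that the inputs lay between the letters without overlap. Its log2 ratio to input was 0.42 ± 0.09 in B (edgeR adjusted p = 0.00534) and -0.47 ± 0.08 in A (adjusted p = 0.00345). L1MdF_IV had 0.33 ± 0.10 in B (adjusted p = 0.0249), lost with library totals or when any 1 of the 3 inputs was left out, and -0.19 ± 0.07 in A (adjusted p = 0.0507). L1MdF_I was lower than input in B, with -0.26 ± 0.06 (adjusted p = 0.0086), and had -0.13 ± 0.05 in A (adjusted p = 0.0879). L1MdF_III, with a mean share of 0.0914%, was lower than input in A, at -0.44 ± 0.09 (adjusted p = 0.00452), and in B, at -0.37 ± 0.09 (adjusted p = 0.00906). For L1MdF_II the ratios were -0.03 ± 0.05 in A and -0.04 ± 0.08 in B.

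In the young families the members again differed. L1MdTf_III held 1.01%, 0.990% and 1.09% in the A fraction tables, 1.41%, 1.29% and 1.60% in the B ones and 1.29%, 1.25% and 1.64% in the inputs. The D21 input, of letter A, was the highest of all, opposite to the fraction tables. The log2 ratio to input was -0.39 ± 0.10 in A (edgeR adjusted p = 0.016), lost without HRS replicate 1 or HRS replicate 3, and 0.13 ± 0.14 in B (adjusted p = 0.444). L1MdGf_II held 0.126%, 0.113% and 0.139% in A, 0.138%, 0.15% and 0.133% in B and 0.183%, 0.186% and 0.262% in the inputs. All 6 fraction tables lay below all inputs and the letters overlapped. Its ratios were -0.70 ± 0.14 in A (adjusted p = 0.00452) and -0.50 ± 0.15 in B (adjusted p = 0.0205), the B call being lost without any 1 of HRS replicate 2, Loop replicate 1 and Loop replicate 3. The other Gf name, L1MdGf_I, had -0.02 ± 0.07 and 0.03 ± 0.09. L1MdTf_I, with 41 to 97 counts a table, had 0.34 ± 0.24 in A and 0.59 ± 0.24 in B (adjusted p = 0.0689), neither of which passed.

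Of the 7 A names, L1MdA_III was below input in both letters. It held 0.173%, 0.133% and 0.172% in the A fraction tables, 0.151%, 0.171% and 0.143% in the B ones and 0.220%, 0.211% and 0.228% in the inputs, and its log2 ratio was -0.42 ± 0.10 in A (edgeR adjusted p = 0.00874) and -0.42 ± 0.08 in B (adjusted p = 0.0047). L1MdA_VII divided by letter, with 0.0820%, 0.0808% and 0.0892% in A, 0.156%, 0.140% and 0.138% in B and 0.104%, 0.104% and 0.119% in the inputs, and ratios of -0.34 ± 0.08 in A (adjusted p = 0.00929) and 0.50 ± 0.09 in B (adjusted p = 0.00282). L1MdA_II had the lowest ratio of the A tables to input, -0.72 ± 0.21 (adjusted p = 0.023), but it rests on 47 to 145 counts a table and was lost without HRS replicate 1, HRS replicate 3 or the D21 input. L1MdA_VI had -0.24 ± 0.08 in A (adjusted p = 0.0452), lost without HRS replicate 1, HRS replicate 3, the D12 input or the D21 input. L1MdA_I, L1MdA_IV and L1MdA_V passed in neither letter.

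Counted over all LINE-1 names, the B fraction tables had 16 of 44 above input beside 24.9% of all names tested, and 5 of 44 below input beside 20.1%. The median log2 ratio to input was 0.12 for LINE-1 names and -0.02 for all names. The names above input not yet given were L1_MM at 0.83 ± 0.09, L1MM_F at 0.59 ± 0.10, LX5 at 0.51 ± 0.08, L1VL1_5 at 0.47 ± 0.15, L1VL2_5 at 0.46 ± 0.09, LX8B at 0.27 ± 0.07, LX5c at 0.24 ± 0.07 and L1MdMus_II at 0.22 ± 0.07. L1MdFanc_II, of the ancestral F type, was below input at -0.33 ± 0.08 (edgeR adjusted p = 0.0109). With library totals as the scaling, which moves the median of all names to -0.11, the split was 11 above and 9 below. L1MdF_IV, L1MdMus_II, L1MdV_III, LX5c and LX8B then no longer passed. Of the 8 names listed last, L1VL1_5 lost its call without any 1 of the inputs, L1MdMus_II without HRS replicate 2, the D0 or the D21 input, and LX5c without the D0 or the D12 input.

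The A fraction tables had 15 of 44 LINE-1 names below input beside 11.7% of all names, and 1 above beside 16.6%. The median log2 ratio was -0.08 for LINE-1 names and 0.00 for all names. The 1 name above was L1_MM at 0.35 ± 0.07 (edgeR adjusted p = 0.005), which was also above input in B. It held 0.0923%, 0.101% and 0.0975% in the A fraction tables, 0.137%, 0.124% and 0.132% in the B ones and 0.0730%, 0.0842% and 0.0784% in the inputs, so that all fraction tables lay above all inputs. The names below input not yet given were L1MM_F at -0.35 ± 0.10, LX5 at -0.30 ± 0.10, L1MdFanc_II at -0.28 ± 0.07, LX2B at -0.28 ± 0.08 and L1VL2_5 at -0.26 ± 0.06. Of these, L1MM_F lost its call without HRS replicate 3, Loop replicate 2, the D12 or the D21 input, LX5 without HRS replicate 3, Loop replicate 2 or any 1 input, and LX2B without HRS replicate 3 or the D21 input. The count of 16 calls fell to 9 without HRS replicate 3, the shallowest table, and to 10 without the D21 input.

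**Figure D3:**
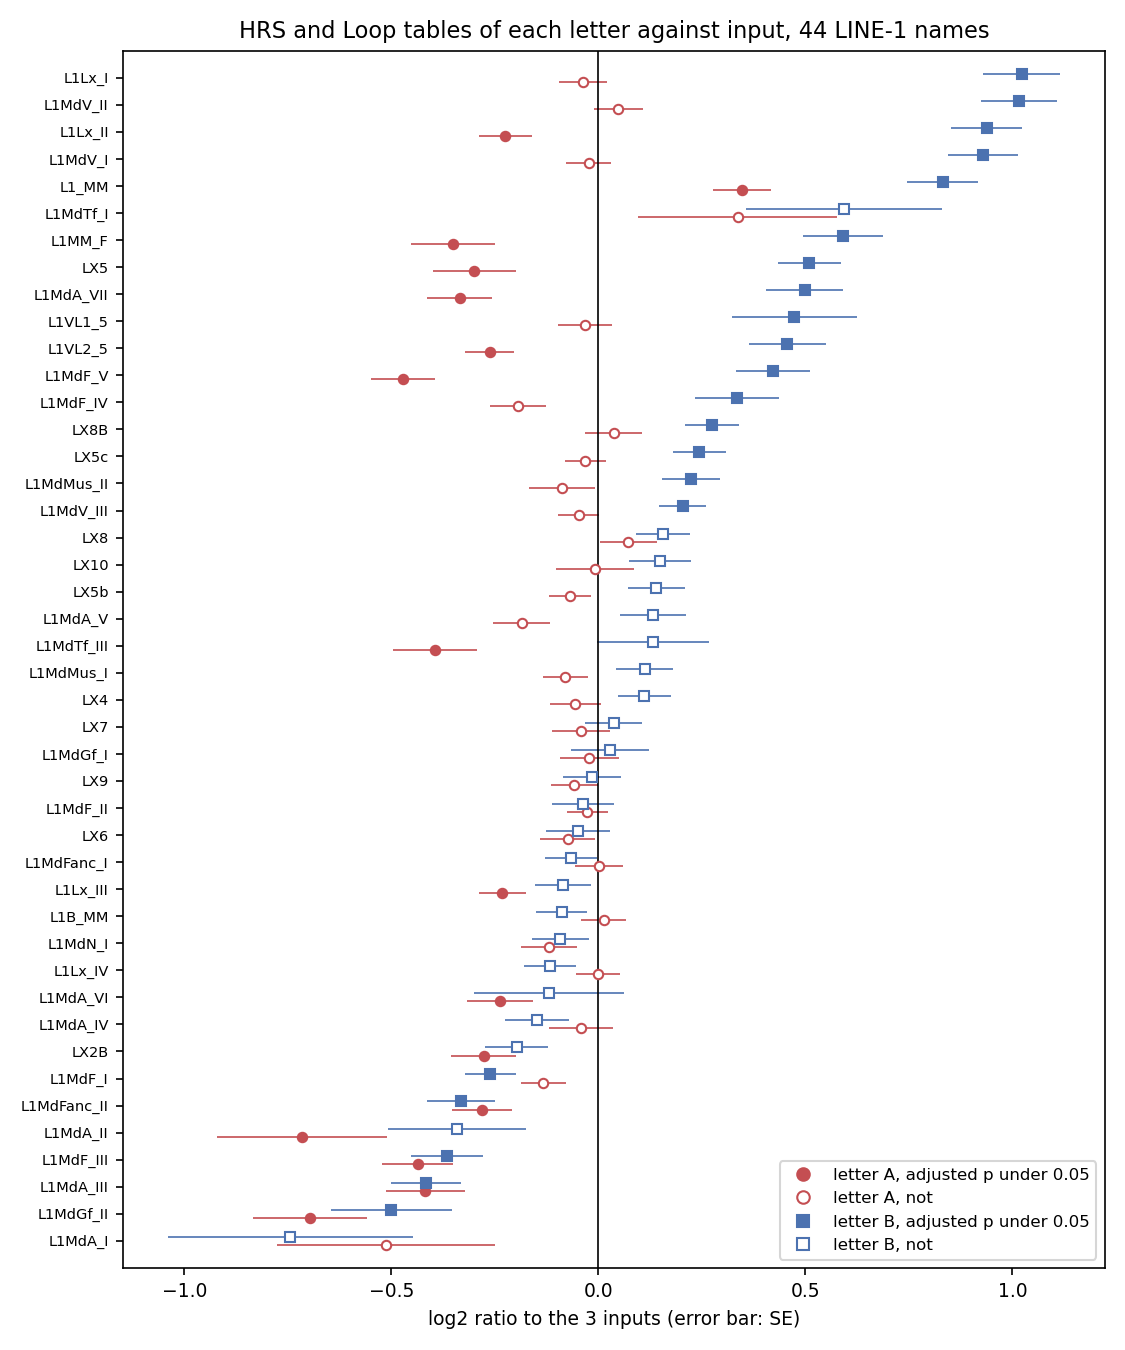
Log2 ratio to the 3 inputs (edgeR, bars of 1 SE) of the A fraction tables and of the B fraction tables for the 44 LINE-1 names tested, filled where the adjusted p was under 0.05. L1Lx_I, L1Lx_II, L1MdV_I and L1MdV_II lie near 1 in B, between 0.93 and 1.02, and between -0.22 and 0.05 in A, whereas L1MdGf_II, L1MdA_III and L1MdF_III lie below 0 in both, and both sets are set against the same 3 inputs.

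Whether the letter difference of the fraction tables is also present between the D0 and D21 inputs was tested in 1 fit of the 8 lettered tables. Between these inputs the letter cannot be told apart from the title, since A is D21 alone and B is D0 alone. In the inputs the letter was called for 0 of 44 LINE-1 names beside 0% of the 296 names tested, 2 LINE-1 names having an unadjusted p under 0.05, with 1 table per letter and a spread taken from the fraction tables. The letter difference in the fraction tables minus that in the inputs was called, lower, for 11 of 44 LINE-1 names beside 7.09% of all names, and higher for 0 beside 3.04%. The median of this difference was -0.26 for LINE-1 names and -0.03 for all names. It was -1.35 ± 0.19 for L1Lx_II (edgeR adjusted p = 0.00147), -1.14 ± 0.19 for L1Lx_I (adjusted p = 0.00435) and -0.98 ± 0.20 for L1MdV_II (adjusted p = 0.00886). Without HRS replicate 1 the count was 6 and without HRS replicate 2 it was 7.

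**Figure D4:**
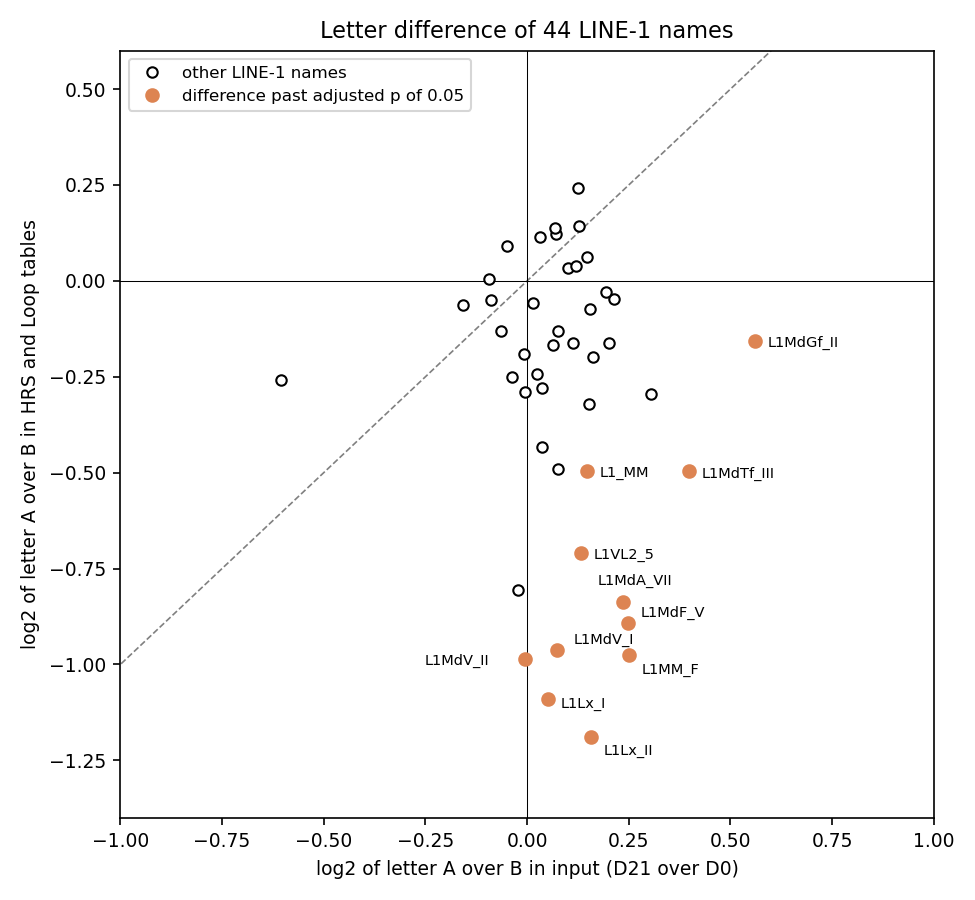
Log2 ratio of letter A over letter B in the fraction tables (vertical axis) against that between the D21 and D0 inputs (horizontal axis) for the 44 LINE-1 names tested, with filled points where the 2 differ at an adjusted p of 0.05 and a dashed line where they are equal. L1Lx_II lies at -1.19 in the fraction tables and 0.16 in the inputs, and L1MdTf_III and L1MdGf_II are the names with the largest positive values in the inputs, 0.40 and 0.56.

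Counts were also summed by the stem of the name, stems that were set after the names were seen. L1Lx (4 names) held 3.42% ± 0.131 (SD, n = 3) in the A fraction tables, 4.91% ± 0.365 in the B ones and 3.79% ± 0.0831 in the inputs. L1MdV (3 names) held 3.42% ± 0.102, 4.72% ± 0.202 and 3.60% ± 0.112. In both the B fraction tables stood above the inputs. The L1VL names (2) had a ratio of A to B of 0.663, the lowest of the stems, L1Lx 0.698, L1MdTf 0.719 and L1MdV 0.725. L1MdF (5 names) and L1MdFanc (2 names) had ratios of 1.06 and 1.08. The exact permutation p was 0.1, the smallest possible, for L1Lx, L1MdTf, L1MdV, L1VL, L1MdMus, LX and the 3 names of no stem, and 0.171 after Benjamini-Hochberg adjustment over 12 groups. Of these, the 3 names of no stem together were higher in A, at 2.22% against 2.07% in B, and the others were lower in A.

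L1MdF as a whole lay below the inputs in both letters, at 11.8% ± 0.434 in A and 11.1% ± 0.326 in B against 13.2% ± 0.417 (SD, n = 3 each), L1MdF_I making up most of it. As a share of LINE-1 counts L1MdF was 39.2% in A, 33.7% in B and 39.4% in the inputs, where A overlapped the inputs and B did not. The 11 LX names held 2.89% ± 0.114 in A, 3.13% ± 0.0714 in B and 3.24% ± 0.00759 in the inputs. Neither A nor B overlapped the inputs, and as a share of LINE-1 counts LX was 9.60%, 9.50% and 9.69%. L1MdGf (2 names) held 0.301%, 0.315% and 0.393% on average, below the inputs in all 6 fraction tables. Between HRS and Loop by label, where 3 against 3 tables cannot go below an exact permutation p of 0.1, L1MdGf was the only one of the 12 groups whose shares of the table total did not overlap, at 0.297% in HRS and 0.319% in Loop (exact p = 0.1, adjusted p = 0.8).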

How the data were processed

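Libraries of short tags next to StyI cuts were made from HRS, Loop and input DNA, per the labels' protocols. The genome build mm9 and CASAVA 1.8.2 are named in the submitters' processing notes. Not given in the sources used here are: aligner, Repbase version and handling of tags that match several names. The values deposited by the authors are whole-number counts per repeat name and, in separate tables, counts per StyI fragment. Groups came from the sample titles and the letters from the names of the repeat files.

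Names missing from a table were set to 0. Shares are percent of the table's total, and whole shares were compared by exact two-sided permutation tests. Counts of all names were fitted together with edgeR 4.0.16 in R 4.3.3 (glmQLFit, glmQLFTest, TMM, and filterByExpr at a minimum count of 10), with p-values adjusted by Benjamini-Hochberg over all names tested and a threshold of 0.05. Only the tables compared entered a fit. Standard errors were derived as log2 ratio over the square root of F. The alternatives were DESeq2 1.42.0, no filter, library totals, size factors by median of ratios, an adjusted p of 0.01, all 9 tables in 1 fit, the letter as a term or subset, the replicate block, and tables left out.

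The members, lists and tests were chosen with earlier results of these data known. Values are given for the 12 names with the largest mean share. No name met the second part of that rule, which took up to 10 names called in the planned fits. Names called in the letter fits were therefore chosen after their values were seen, as were these fits, the name stems and the limit of 200 bp. The edgeR fit was tested on simulated counts of HRS against Loop, with the same spread for all names and no difference between letters. The fits by letter were not tested in this way. For the 27 names above a mean share of 0.1% the 95% Wilson interval was within 5.32% of the value in every table. Intervals and limits for a count of 0 (3 counts of the total) cover counting error only. No LINE-1 sequence was used here.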

Additional observations from a re-analysis of the deposited data

Results flagged for a closer look

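For 11 LINE-1 names the log2 ratio of letter A over B in the fraction tables differed from that between the D21 and D0 inputs, by the test of the difference itself (edgeR, adjusted p between 0.00147 and 0.0405). The input side is 1 table per letter, with its spread taken from the fraction tables. The letter cannot be told apart there from the titles D21 and D0. The difference was -1.35 for L1Lx_II, from -1.19 in the fraction tables and 0.16 in the inputs. It was -1.14 for L1Lx_I (-1.09 and 0.05), -1.03 for L1MdV_I (-0.96 and 0.07) and -0.98 for L1MdV_II (-0.99 and -0.00). In these 4 names nearly all of it came from the fraction tables.

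L1MM_F gave -1.22 (-0.97 and 0.25), L1MdF_V -1.14 (-0.89 and 0.25) and L1MdA_VII -1.07 (-0.84 and 0.23). L1VL2_5 gave -0.84 (-0.71 and 0.13) and L1_MM -0.64 (-0.49 and 0.15). For L1MdTf_III the difference was -0.89 (-0.50 and 0.40). For L1MdGf_II it was -0.72, of which the inputs made up the larger component (-0.16 and 0.56). L1MdGf_II, L1MdTf_III, L1VL2_5 and L1_MM lost their call without HRS replicate 1 or without HRS replicate 2, and L1MdV_II without HRS replicate 1. L1MdGf_II did so without Loop replicate 1 too, and L1_MM without HRS replicate 3 or Loop replicate 2. Both were also lost with library totals as the scaling.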

How the results depend on the processing

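Depth was no limit for the common names, whereas L1MdTf_II could not be tested and L1MdA_I rests on 11 to 32 counts a table. The counts of called names depended on which letters entered. HRS against Loop gave 0 with each table left out in turn and with the replicate block, and 14 without both replicate 2 tables. HRS against input gave 4 with DESeq2, 13 in letter A alone, 14 without both replicate 2 tables and 0 to 14 with 1 table left out. Loop against input gave 5 with DESeq2, 9 in letter B alone, 20 without both replicate 2 tables and 0 to 20. Letter A against B gave 9 with DESeq2, 18 in the fraction tables alone and 0 to 18. Between the D21 and D0 inputs, with 1 table per letter, the absence of a LINE-1 call did not hold without Loop replicate 3. With 1 table left out, A fraction tables against input gave 9 to 15 instead of 16, those of B 16 to 21 instead of 21, and the letter difference minus that in input 6 to 15 instead of 11.

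The LINE-1 share difference kept its sign in letter A alone and took the other sign in letter B alone. In B it was 0.448 points for HRS against Loop, 0.562 for HRS against input and 0.114 for Loop against input. With 1 table left out of all those compared, the share difference ran from -2.48 to -0.259, -3.74 to -1.52 and -1.79 to -0.633 points for these 3. For letter A against B it ran from -2.78 to -0.996. In HRS against input, L1Lx_II (log2 ratio 0.36 with all tables) was -0.25 without HRS replicate 2 or without both replicate 2 tables, -0.33 in letter A alone, and up to 0.62 with another table left out. L1MdA_VII (0.03) was -0.39, -0.53 and up to 0.22, and L1VL2_5 (0.01) -0.29, -0.37 and up to 0.17. The cause was not tested.

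Same-numbered HRS and Loop tables deviated from their group means with correlations of -0.383, -0.752 and -0.430, and each such pair has opposite letters, so the number was not taken to pair the repeat tables. Under the replicate block the LINE-1 share difference was -1.30 points. This equals the value without the block by arithmetic, since the same tables enter both means. Loop against input in letter A and HRS against input in letter B were not run over names, since 1 table against 1 leaves no residual degrees of freedom.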
